A study of Mus musculus with 6 samples.

Results

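The genes described here are the transcriptional coactivators YAP and TAZ, the 4 TEAD transcription factors through which they act, and 4 target genes. The 10 genes (Yap1, Wwtr1, Tead1, Tead2, Tead3, Tead4, Ankrd1, Amotl2, Lats2 and Ajuba) were taken by name from the 53801 Ensembl genes counted in each library, and all 10 were among the 14531 genes with enough counts to be tested. RNA came from MC3T3-E1, a line of mouse pre-osteoblasts derived from newborn calvaria. Control cells (3 libraries) carried a lentivirus expressing a scrambled non-silencing RNA, and Hdac4-knockdown cells (3 libraries) carried one expressing a short hairpin RNA against Hdac4. Both groups went through puromycin selection (5 μg/mL, 7 days). The labels describe 3 independent RNA samples from the infected cells of each group, without saying whether infection was repeated, and differences between these infected cells other than the knockdown cannot be told apart from it. The labels list 3 hairpins and do not say which of them the sequenced cells carried, and the study's text names Hdac4-shRNA3. Each library held 29096544 to 31651826 reads counted on genes.

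YAP (encoded by Yap1) and TAZ (encoded by Wwtr1) do not bind DNA themselves. They shuttle between cytoplasm and nucleus, and in the nucleus they bind a TEAD protein, which recognises the MCAT element of promoters and enhancers. The Hippo kinases MST (Stk3, Stk4) and LATS (Lats1, Lats2) phosphorylate YAP and TAZ and keep them out of the nucleus. Cell spreading on a stiff matrix favours their nuclear form, and in the bone lineage TAZ is known as a partner of the osteoblast factor Runx2. Because phosphorylation and location set their activity, transcript counts describe the supply of these proteins and the output of their target genes, not their activity.

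The promoter sequences of these genes were examined for the core of the MCAT element, CATTCC, or its reverse complement GGAATG. RefSeq promoter windows (GRCm38.p6, 250 bases before to 50 bases after a gene start) were found for 8 of the 10 genes, all but Tead1 and Tead4. A match was present in 7 of these 8 genes, against 16.6% of the 27025 genes with a window, and Tead2 had none. The matches fell on 12 positions, and those not printed here belong to Tead3. Printed in 30-base stretches, to show what flanks the core, are 9 matches. These are all those of the coactivator and target genes and the Tead3 match farthest upstream. They are written 5′ to 3′ on the strand of the gene, and capitals mark the 6 matching bases.
Ankrd1, chr19:36120037-36120066, minus strand: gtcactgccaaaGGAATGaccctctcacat
Ankrd1, chr19:36119950-36119979, minus strand: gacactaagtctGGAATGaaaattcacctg
Amotl2, chr9:102717727-102717756, plus strand: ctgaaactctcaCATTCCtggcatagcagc
Lats2, chr14:57746102-57746131, minus strand: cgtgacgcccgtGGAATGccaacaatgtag
Ajuba, chr14:54577830-54577859, minus strand: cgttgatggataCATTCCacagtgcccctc
Ajuba, chr14:54577808-54577837, minus strand: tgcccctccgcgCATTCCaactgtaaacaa
Yap1, chr9:8004720-8004749, minus strand: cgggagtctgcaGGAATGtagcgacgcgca
Wwtr1, chr3:57576029-57576058, minus strand: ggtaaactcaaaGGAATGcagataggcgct
Tead3, chr17:28350970-28350999, minus strand: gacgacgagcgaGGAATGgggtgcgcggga
The Ankrd1 matches begin 210 and 123 bases before the gene start of its window. Those of Ajuba begin 186 and 164 bases before, that of Amotl2 65, that of Yap1 141 and that of Wwtr1 136. The Lats2 match lies just after the gene start. In GENCODE M21 the matches of Ankrd1, Amotl2 and Lats2 lie in untranslated exon sequence, whereas those of Yap1, Wwtr1 and Ajuba and the printed one of Tead3 lie outside exons. A match of 6 letters is a description of the sequence and does not show that a TEAD protein binds there.

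The 6 libraries were first checked against their labels. Hdac4 was counted 1243, 1204 and 1136 times in Control libraries and 950, 927 and 887 times in Hdac4-knockdown libraries, which after normalization was 73.6% of the Control level (log2 fold change -0.44, SE 0.057, edgeR adjusted p = 8.98e-07). A fall at least as large as that of Hdac4 was seen in 23.0% of all genes tested. Hdac4 shares 3536 of its 15813 exon bases with the overlapping gene Gm26720. Of 8 markers of pre-osteoblasts and mesenchyme, 7 had enough counts to be tested. Of these, 6 were upregulated and 1 (Msx2) downregulated, beside 38.0% and 37.1% of all genes tested. Alpl, the alkaline phosphatase of osteoblasts, had 3 counts or fewer in every library. Their summed level was 1745 to 1804 CPM (counts scaled to a common library size with TMM factors) in Control libraries and 19719 to 20532 CPM in Hdac4-knockdown libraries. Col1a1 (338 against 11015 CPM) and Col1a2 (1213 against 8572 CPM), which encode type I collagen, carried most of this sum, whereas Runx2 rose 1.14 times with overlapping groups. The 5 endothelial markers summed to 0.262 to 0.421 CPM in Control and 2.81 to 3.16 CPM in knockdown libraries. Most of this was Pecam1 (6, 7 and 6 against 72, 75 and 75 counts), while Cdh5, Kdr and Tek had 10 counts or fewer and Emcn 0 in each library. The 5 macrophage and haematopoietic markers summed to 1.60 to 2.59 and 2.82 to 3.20 CPM, with Adgre1 at 0 counts in all libraries. Other marker sums were lower in the knockdown. The 5 epithelial markers summed to 37.1 to 43.6 CPM in Control and 0.731 to 0.993 CPM in knockdown libraries, and most of the Control sum was Krt19, with 1116, 1185 and 1230 counts against 1, 6 and 5. The 5 neural markers summed to 433 to 454 CPM and 83.9 to 92.2 CPM, with Nefl at 7696, 7175 and 7347 counts against 2, 1 and 0, and Sox10 at 0 throughout. The 5 adipocyte markers summed to 105 to 116 CPM and 23.9 to 29.1 CPM, with Adipoq at 1 count or fewer. The part of these marker differences in the results on YAP/TAZ genes was not tested.

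Across all genes, 75.1% were called, for which a gene had to pass 0.05 both in edgeR adjusted p and in the size of its log2 fold change. Upregulated genes made up 38.0% and downregulated genes 37.1%. All 10 genes of the YAP/TAZ group were called, 6 upregulated and 4 downregulated in Hdac4-knockdown cells, so that being called says little in itself, and the sizes of the differences carry the description. Beyond a log2 fold change of 1, 27.1% of all genes were called, and 2 of the 10 were, Tead4 upregulated and Ankrd1 downregulated. The median log2 fold change of the 10 genes was 0.26, beside 0.014 for all genes tested. Regardless of sign, the median size over all genes tested was 0.46, and Yap1, Tead1, Lats2 and Ajuba changed by less. Of all genes tested, 21.2% rose at least as far as Wwtr1, 20.9% as far as Tead3 and 24.9% as far as Amotl2. A fall at least as large as that of Tead2 was seen in 16.2%. The libraries of the groups did not overlap for 9 of the 10 genes, beside 76.8% of all genes. In bulk RNA, fewer cells of a kind and less RNA per cell cannot be told apart.

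**Figure D1:**
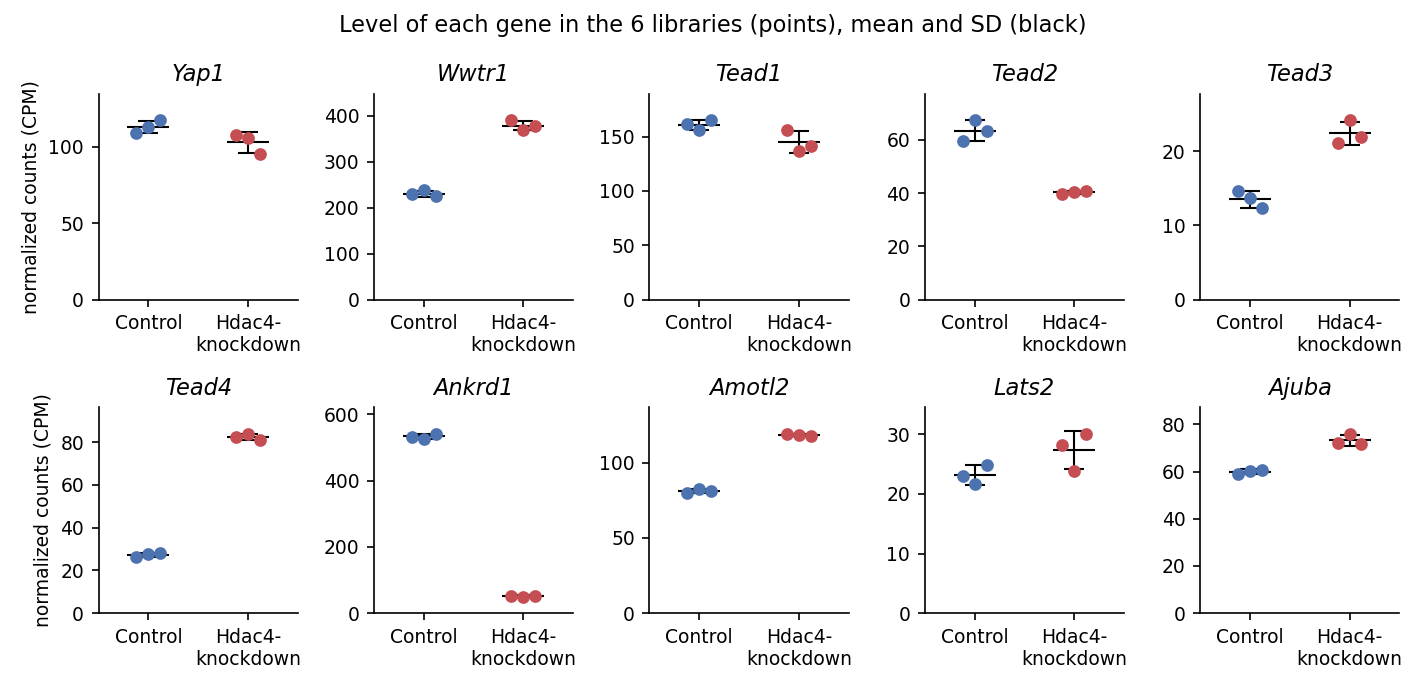
Normalized counts (CPM, linear axes from 0) of the 10 genes in the 3 Control (blue) and 3 Hdac4-knockdown (red) libraries, with the mean and SD of each group in black. Ankrd1 dropped from 533 to 50.5 CPM and Tead4 rose from 27.3 to 82.4 CPM, whereas the values of Yap1 and Tead1 lay close together and those of Lats2 overlapped.

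The coactivators differed from each other. Wwtr1, which encodes TAZ (ENSMUSG00000027803, chromosome 3 from 57455649 to 57575910), was at 229, 238 and 225 CPM in Control libraries and at 389, 369 and 376 CPM in Hdac4-knockdown libraries. All knockdown libraries lay well above all Control libraries. The level rose 1.64 times, from 230 ± 6.72 to 378 ± 10.4 CPM (SD, n = 3), with a log2 fold change of 0.72 (SE 0.0401, edgeR adjusted p = 3.20e-12). Yap1 (ENSMUSG00000053110, chromosome 9 from 7931999 to 8004596) was at 109, 113 and 117 CPM in Control libraries and at 108, 105 and 95.2 CPM in Hdac4-knockdown libraries. The highest knockdown value was only just below the lowest Control value. Its mean was 113 ± 4.14 CPM against 103 ± 6.64 CPM (SD, n = 3), a log2 fold change of -0.14 (SE 0.0504, edgeR adjusted p = 0.0207). This small decrease was not called with the upper quartile method (log2 fold change -0.046, edgeR adjusted p = 0.415) or with library size alone (-0.079, edgeR adjusted p = 0.163). It was also lost without Control replicate 3 (-0.12, edgeR adjusted p = 0.0723) and without Hdac4-knockdown replicate 3 (-0.078, edgeR adjusted p = 0.188).

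Levels of different genes were compared per kilobase of merged exons. On this scale Wwtr1 was the more abundant coactivator transcript in both groups, at 48.2 against 12.2 CPM per kb for Yap1 in Control libraries and 79.2 against 11.1 CPM per kb in Hdac4-knockdown libraries. The sum of Yap1 and Wwtr1 was 59.6, 61.9 and 59.7 CPM per kb in Control libraries and 93.1, 88.6 and 89.0 CPM per kb in Hdac4-knockdown libraries. The summed level was thus 1.49 times higher in the knockdown. Wwtr1 made up 79.8 ± 0.876% of the sum in Control and 87.7 ± 0.674% in Hdac4-knockdown libraries (SD, n = 3). The groups did not overlap for either measure (two-sided exact permutation test, p = 0.1 for each, the smallest p that 3 libraries against 3 allow).

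The TEAD genes moved in different directions. Their proteins share a DNA-binding domain that reads the same element, and all of them use YAP and TAZ as coactivators. Tead4 (ENSMUSG00000030353, chromosome 6 from 128224288 to 128300823), known for its role in the trophectoderm of the early embryo and in muscle, was at 26.1, 27.6 and 28.1 CPM in Control libraries and at 82.2, 83.8 and 81.1 CPM in Hdac4-knockdown libraries. Every knockdown library thus stood far above every Control library. The level rose 3.02 times, with a log2 fold change of 1.60 (SE 0.0526, edgeR adjusted p = 6.12e-16), and 10.8% of all genes tested rose at least as far. Tead3 (ENSMUSG00000002249, chromosome 17 from 28331671 to 28350817), the least abundant of the family here, was at 14.6, 13.7 and 12.3 CPM in Control and at 21.1, 24.1 and 22.0 CPM in Hdac4-knockdown libraries. It rose 1.66 times (log2 fold change 0.73, SE 0.083, edgeR adjusted p = 1.71e-07), again without overlap between the groups.

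Tead2 (ENSMUSG00000030796, chromosome 7 from 45215753 to 45233644), a TEAD factor best known from the early embryo and neural crest, moved the other way. It was at 59.4, 67.3 and 63.4 CPM in Control libraries and at 39.8, 40.3 and 40.9 CPM in Hdac4-knockdown libraries. The knockdown libraries were nearly equal to each other and all lower than Control. Their mean was 63.7% of the Control mean, with a log2 fold change of -0.65 (SE 0.0553, edgeR adjusted p = 2.16e-09). Tead1 (ENSMUSG00000055320, chromosome 7 from 112679318 to 112906807), which is needed for heart development, was at 161, 156 and 165 CPM in Control libraries and at 156, 137 and 141 CPM in Hdac4-knockdown libraries. Replicate 1 of the knockdown lay at the level of the lowest Control library. The log2 fold change was -0.15 (SE 0.0488, edgeR adjusted p = 0.00871), and it was not called with the upper quartile method (-0.063, edgeR adjusted p = 0.249) or with library size alone (-0.095, edgeR adjusted p = 0.0878).

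Per kilobase, the order of the TEAD transcripts in Control libraries was Tead2 (13.2 CPM per kb), Tead1 (11.9), Tead4 (7.58) and Tead3 (2.01). Tead2 and Tead1 were close, with Tead1 libraries reaching 12.2 CPM per kb and Tead2 libraries starting at 12.4. In Hdac4-knockdown libraries the order was Tead4 (22.9 CPM per kb), Tead1 (10.7), Tead2 (8.43) and Tead3 (3.33), and no neighbours in it overlapped. Tead4 accounted for 21.5, 21.7 and 22.3% of the summed TEAD level in Control libraries and for 49.9, 51.3 and 50.3% in Hdac4-knockdown libraries. The share of Tead2 fell from 38.1 ± 1.55% to 18.6 ± 0.471% and that of Tead1 from 34.2 ± 1.37% to 23.5 ± 1.48% (SD, n = 3). The sum itself was 34.7 ± 0.821 CPM per kb in Control and 45.3 ± 0.520 CPM per kb in Hdac4-knockdown libraries (SD, n = 3), 1.31 times higher. For the sum and for each share, the groups did not overlap (exact permutation, two-sided p = 0.1, which is the minimum).

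**Figure D2:**
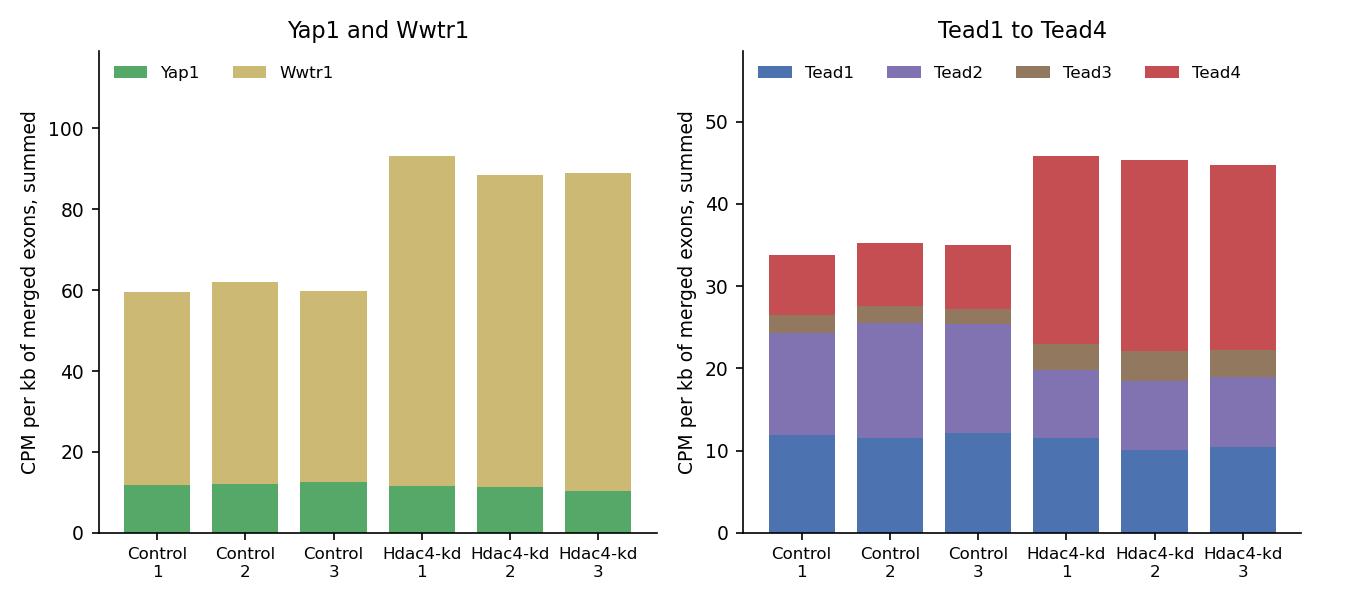
Summed transcript level per kilobase of merged exons (CPM per kb, stacked bars from 0) of Yap1 and Wwtr1 (left) and of Tead1 to Tead4 (right) in each of the 6 libraries. Wwtr1 makes up most of the left bars in both groups, and Tead4 grows from 21.9% of the right bars in Control to 50.5% in Hdac4-knockdown (Hdac4-kd) libraries.

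Among the target genes, Ankrd1 stood apart. It encodes an ankyrin repeat protein of the muscle sarcomere and nucleus and is one of the most widely used readouts of YAP and TAZ (ENSMUSG00000024803, chromosome 19 from 36111961 to 36120099). Its counts were 16281, 15722 and 15414 in Control libraries and 1601, 1524 and 1581 in Hdac4-knockdown libraries. After normalization it was at 533, 525 and 541 CPM in Control libraries and at 51.7, 47.3 and 52.5 CPM in Hdac4-knockdown libraries. The knockdown level was 9.48% of the Control level, a log2 fold change of -3.40 (SE 0.0472, edgeR adjusted p = 1.01e-21), and 1.31% of all genes tested fell at least as far. By p-value it ranked 28 among the 14531 genes. Per kilobase it went from the most abundant of the 10 genes, at 185 CPM per kb in Control libraries, to 17.5 CPM per kb.

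The fall of Ankrd1 went with falls of skeletal muscle genes. Of 5 skeletal muscle markers, 5 were downregulated (log2 fold changes from -3.07 to -1.90), beside 37.1% of all genes. Their summed level was 128 to 135 CPM in Control libraries and 19.0 to 20.5 CPM in Hdac4-knockdown libraries. They include Myod1, the master regulator of the muscle lineage, at 65 to 72 CPM in Control and 8.0 to 9.6 CPM in knockdown libraries. The epithelial, neural and adipocyte marker sums were also lower, so the falls beside Ankrd1 were not confined to muscle genes. The part of the muscle genes or of these other markers in the Ankrd1 difference was not tested.

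The other 3 target genes, which also feed back on the pathway, were higher in Hdac4-knockdown cells. Amotl2 (ENSMUSG00000032531, chromosome 9 from 102716672 to 102733418) encodes an angiomotin, a junctional protein that holds YAP in the cytoplasm. It was at 80.0, 82.3 and 81.2 CPM in Control libraries and at 119, 119 and 118 CPM in Hdac4-knockdown libraries. The replicates of each group were nearly identical, and the level rose 1.46 times (log2 fold change 0.55, SE 0.0426, edgeR adjusted p = 5.45e-10). Ajuba (ENSMUSG00000022178, chromosome 14 from 54567472 to 54577558), a LIM protein that inhibits LATS kinases, was at 58.8, 60.2 and 60.8 CPM in Control and at 71.9, 75.9 and 71.6 CPM in Hdac4-knockdown libraries. It rose 1.22 times, without overlap (log2 fold change 0.29, SE 0.048, edgeR adjusted p = 2.30e-05).

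Lats2 (ENSMUSG00000021959, chromosome 14 from 57689662 to 57758388), encodes a LATS kinase and is itself a YAP target. It was at 23.1, 21.6 and 24.9 CPM in Control libraries and at 28.2, 23.8 and 30.1 CPM in Hdac4-knockdown libraries. Knockdown replicate 2 fell below Control replicate 3, so the ranges crossed (exact permutation, two-sided p = 0.2). The log2 fold change of 0.24 (SE 0.0823, edgeR adjusted p = 0.0136) no longer passed without Control replicate 2 (0.18, edgeR adjusted p = 0.0874) or without Hdac4-knockdown replicate 3 (0.17, edgeR adjusted p = 0.0887). Of its 6971 exon bases, 2955 are shared with the overlapping gene Gm49361, so that its counts are uncertain. For none of the other 9 genes did the share reach that of Lats2, 42.4%, the next being Yap1 with 1.25%.

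**Figure D3:**
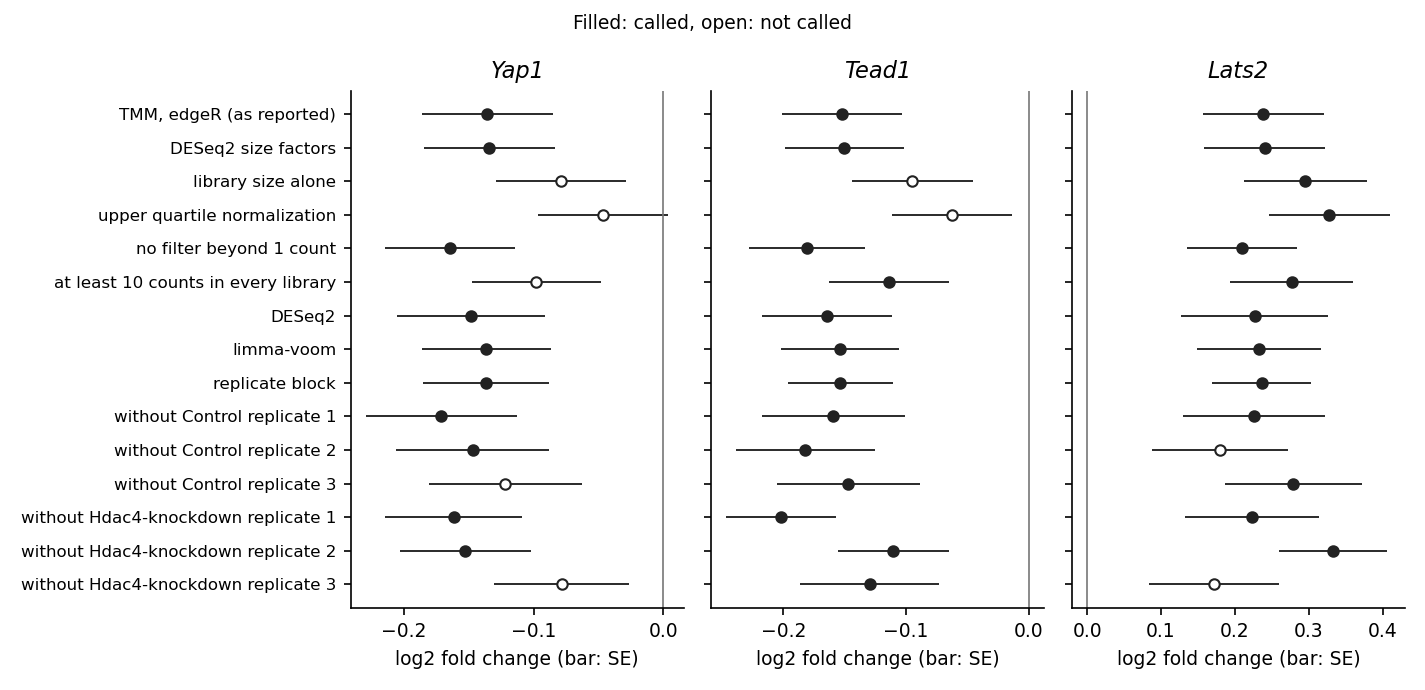
Log2 fold change (points) and SE (bars) of Yap1, Tead1 and Lats2, the 3 of the 10 genes with the smallest differences, under each normalization, filter, test and omission of a library; filled points were called and open points were not. Yap1 ranges from -0.17 to -0.046, Tead1 from -0.20 to -0.063 and Lats2 from 0.17 to 0.33, so that every direction stayed while several calls were lost.

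A further 19 genes often listed as YAP/TAZ targets were examined for comparison. All 19 were tested, and 14 were upregulated and 5 downregulated (Axl, Ccn1, Igfbp3, Gadd45a and Arhgef17), beside 38.0% and 37.1% of all genes. Their median log2 fold change was 0.49 beside 0.014 for all genes. The matricellular genes Ccn1 and Ccn2, both classical YAP targets, moved in opposite directions. Ccn1 (CYR61) was at 299.8, 307 and 299 CPM in Control and at 239, 260 and 256 CPM in Hdac4-knockdown libraries (log2 fold change -0.26, SE 0.0412, edgeR adjusted p = 1.05e-05). Ccn2 (CTGF) was at 35.6, 36.2 and 37.2 CPM in Control and at 62.8, 65.0 and 69.6 CPM in Hdac4-knockdown libraries (log2 fold change 0.86, SE 0.0547, edgeR adjusted p = 2.52e-11). For Ccn2, 665 of its 2861 exon bases are shared with Gm15270.

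Axl, a receptor tyrosine kinase, had the largest decrease of the list among genes averaging 100 or more counts, from 881 ± 23.3 to 625 ± 2.76 CPM (SD, n = 3; log2 fold change -0.50, SE 0.0363). Gadd45a, also at -0.50 (SE 0.0806), could not be separated from it. The largest increase by the same rule was that of Ccdc80, a secreted matrix protein, from 42.7 ± 0.472 to 143 ± 0.274 CPM (SD, n = 3; log2 fold change 1.74). Beyond a log2 fold change of 1, 3 of the 19 were upregulated (Ccdc80, F3 and Fjx1) and 1 was downregulated (Igfbp3), no larger a share than the 16.5% and 10.6% of all genes. Fjx1, which encodes a kinase of the Fat and Dachsous pathway, had 0 counts in each Control library and 44, 30 and 37 in the knockdown libraries. Igfbp3, a binding protein of insulin-like growth factors, had 88, 124 and 90 counts in Control and 2, 0 and 2 in knockdown libraries. F3, Fjx1, Igfbp3, Gadd45a and Arhgef17 were named after their values were seen. The target genes, those of the group of 10 included, thus did not move as one block.

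Kinases and adaptors of the Hippo cascade showed no common direction. Of 20 genes, 9 were upregulated, 9 downregulated and 2 (Sav1 and Taok3) not called, beside 38.0% upregulated and 37.1% downregulated over all genes. The median log2 fold change was 0.00037, against 0.014 over all genes, and it took either sign when settings were changed. The MST kinase genes were lower, Stk3 by a log2 fold change of -0.41 (SE 0.0652, edgeR adjusted p = 1.46e-05) and Stk4 by -0.57 (SE 0.0505, edgeR adjusted p = 4.14e-09). Lats1, the other LATS kinase gene, was at 34.5, 36.2 and 37.1 CPM in Control and at 27.7, 27.7 and 28.6 CPM in Hdac4-knockdown libraries, a log2 fold change of -0.36 (SE 0.0593, edgeR adjusted p = 1.99e-05). Per kilobase, no order of Lats1 and Lats2 is given, because of the exon bases that Lats2 shares.

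Nf2, which encodes the upstream regulator merlin, was higher, with a log2 fold change of 0.22 (SE 0.0424, edgeR adjusted p = 0.000135). Sav1, the adaptor of the MST kinases, was not called, at 58.7, 77.6 and 58.7 CPM in Control and 61.6, 62.7 and 60.5 CPM in Hdac4-knockdown libraries (log2 fold change -0.077, edgeR adjusted p = 0.384), and it shares 1336 of its 5265 exon bases with Atl1. Map4k3, a kinase that can act on LATS in parallel to MST, had the largest increase of the list, from 37.5 ± 2.59 to 99.5 ± 3.14 CPM (SD, n = 3; log2 fold change 1.41). Wwc1, which encodes KIBRA, had the largest decrease, from 12.5 ± 0.0917 to 6.17 ± 0.910 CPM (SD, n = 3; log2 fold change -1.02).

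A further list held 12 genes, most of them for proteins that bind YAP or TAZ or link the pathway to junctions. Of these 12 genes, 11 were tested, 7 were upregulated, 2 downregulated and 2 (Limd1 and Slmap) not called. The list's median log2 fold change was 0.32. Over all genes, 38.0% were upregulated and 37.1% downregulated, with a median of 0.014. The share called, 9 of 11, was thus near the 75.1% of all genes. The angiomotin genes Amot (log2 fold change 0.43, SE 0.0497, edgeR adjusted p = 2.15e-07) and Amotl1 (0.37, SE 0.0413, edgeR adjusted p = 1.25e-07) were higher, as was Amotl2. The largest increase was that of Fat4, an atypical cadherin, which had 91, 69 and 98 counts in Control and 740, 739 and 617 in Hdac4-knockdown libraries (log2 fold change 2.95, SE 0.119, edgeR adjusted p = 1.49e-14). Of the Fat4 exon bases, 8.68% are shared with other genes. The largest decrease was that of Strn3, a subunit of the STRIPAK phosphatase complex, with a log2 fold change of -0.53 (SE 0.0463, edgeR adjusted p = 3.22e-09), close to that of Scrib (-0.48, SE 0.0477). Ptpn14, a phosphatase that binds YAP and also stands among the 19 targets, was upregulated (log2 fold change 0.49), and it is counted in both lists.

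The Vgll genes encode cofactors that bind TEAD proteins in place of YAP and TAZ. Vgll1 had 0 counts in all libraries, and the other 3 differed between the groups. Vgll2, a cofactor of TEAD in skeletal muscle, had 333, 381 and 311 counts in Control and 5, 4 and 3 counts in Hdac4-knockdown libraries. The summed counts gave 1.12% of the Control level (exact 95% interval 0.575 to 1.96%, covering counting error only). As with Ankrd1, the muscle markers and the epithelial, neural and adipocyte marker sums fell with it, and their part in the difference was not tested. Vgll3 was at 20.6, 20.9 and 21.8 CPM in Control and at 52.0, 42.1 and 51.9 CPM in Hdac4-knockdown libraries (log2 fold change 1.21, SE 0.0759, edgeR adjusted p = 2.01e-11). Vgll4, which represses TEAD targets, was at 37.5, 35.3 and 34.9 CPM in Control and at 53.0, 55.4 and 52.6 CPM in Hdac4-knockdown libraries (log2 fold change 0.58, SE 0.0546, edgeR adjusted p = 1.03e-08). The groups did not overlap for any of these 3 genes, nor for 76.8% of all genes.

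**Figure D4:**
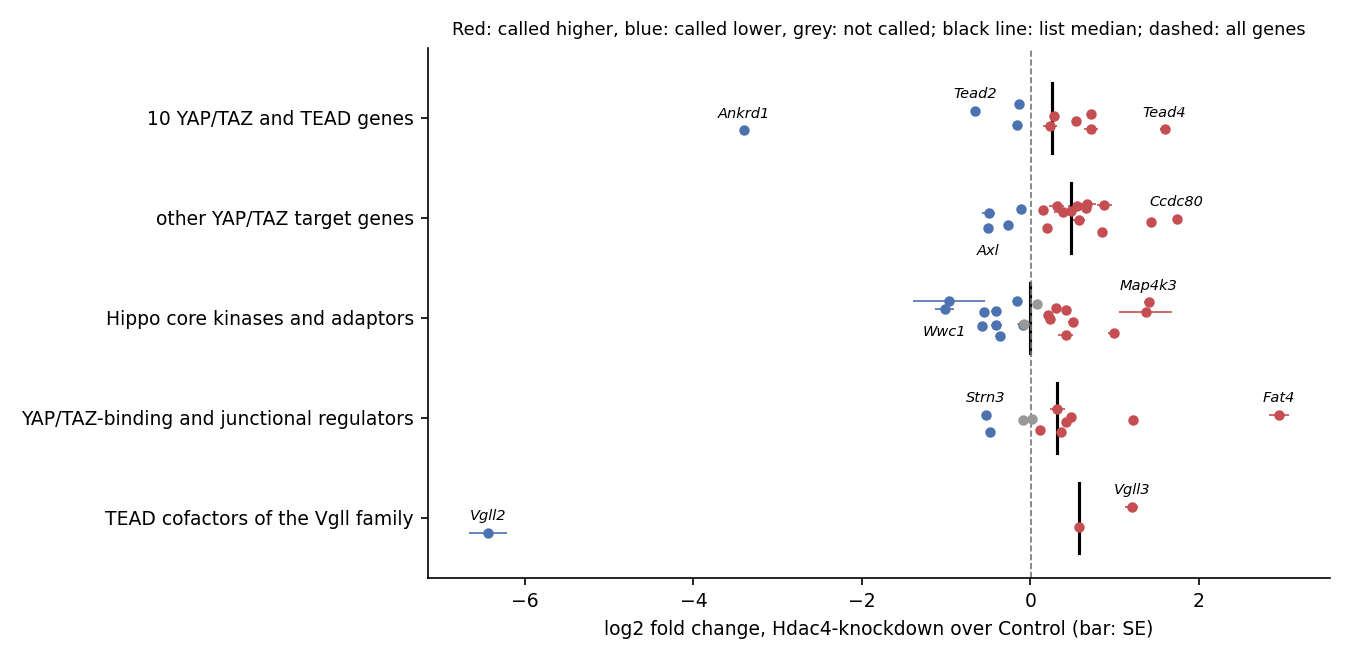
Log2 fold change (points, Hdac4-knockdown over Control) and SE (bars) of the 10 YAP/TAZ and TEAD genes and of 4 lists of pathway genes, with the median of each list (black line) and of all genes tested (dashed line, 0.014). Ankrd1 at -3.40 and Vgll2 at -6.44 lie far to the left of lists whose medians are between 0.00037 and 0.58; Fjx1 and Igfbp3, with counts of 0 in a library, are not drawn.

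The CATTCC core described above, present in 16.6% of all genes with a promoter window, was also counted in these lists. It was present in 4 of 12 other target genes with a promoter window, in 3 of 17 Hippo kinases and adaptors, in 3 of 9 YAP/TAZ-binding and junctional regulators and in 3 of 4 Vgll genes. Within the group of 10, genes with a match included Ankrd1 and Yap1, which fell, and Wwtr1, Tead3, Amotl2, Lats2 and Ajuba, which rose. Tead2, without a match in its window, fell.

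Genes whose levels followed those of Yap1 and Ankrd1 over the 6 libraries were sought among the 10824 genes that averaged 100 or more counts. For Ankrd1 the highest Pearson correlations of log2 CPM were with Pde5a (r = 0.99998), Dusp4 (0.99994) and Serpinb2 (0.99991), which fell with log2 fold changes of -3.03, -1.83 and -4.75. A correlation above 0.99 with Ankrd1 was reached by 1362 genes, since the libraries form 2 groups and most genes differed between them. For Yap1 the highest were Oas1g (r = 0.991), Taf5 (0.986) and Arel1 (0.976), with log2 fold changes of -0.12, -0.34 and -0.11. These correlations describe 6 libraries only and carry no test.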

How the data were processed

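Poly-A RNA from 3 Control and 3 Hdac4-knockdown MC3T3-E1 cultures was sequenced with a library kit that does not mark strand. The deposited files give raw counts per Ensembl gene, and the submitters' processing notes name STAR 2.7.3a, HTSeq 0.12.4 and mm10; the annotation release and counting options are not given in the sources used here. The authors deposited these counts without normalization. Lines for reads outside genes (3.17 to 5.07% of each table), shared between genes (5.84 to 6.51%) or aligned to several places (3.88 to 4.77%) were left out. Without strand, reads from overlapping genes cannot be told apart.

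Of 53801 identifiers, 53706 were found in GENCODE M21 (GRCm38), which gave symbols, positions and exon lengths. The test was the quasi-likelihood F test of edgeR 4.0.16, run in R 4.3.3 after filterByExpr and TMM scaling, with p-values adjusted over 14531 genes by Benjamini-Hochberg. The study's text states the thresholds used for calls, an adjusted p of 0.05 and a log2 fold change of 0.05, but no test. Levels per length are CPM per kilobase of merged exons. Exact permutation tests were two-sided. Libraries of the same group differed by more than the sampling noise (chi-square per degree of freedom 3.38 to 9.15). The labels call the 3 samples of a group independent RNA samples, and p-values measure the spread between these. Intervals cover counting error only.

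The members and lists were chosen with earlier results of these data known. Named were the 10 genes, Hdac4, Ccn1, Ccn2, Axl, Lats1, Stk3, Stk4, Sav1, Nf2, Vgll3, Vgll4, Amot and Amotl1, the called gene with the highest and the lowest log2 fold change in each list (mean count of 100 or more), and the 3 genes most correlated with Yap1 and with Ankrd1. Genes named to complete a count, F3, Fjx1 and single markers were chosen after their values were seen. Marker lists are given as sums. RefSeq promoter windows were searched for exact matches on both strands. A comparison of protein sequences was not done here.

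Tried in turn were upper quartile normalization, library size alone and the size factors of DESeq2, a stricter filter (10 counts in each library) and none (1 count), limma-voom (limma 3.58.1) and DESeq2 1.42.0 as tests, a block for the replicate number, log2 fold change thresholds of 0, 0.5 and 1, the longest transcript as length, and leaving out each library. The comparison of Hdac4-knockdown with Control was also run on simulated data (14407 genes). There edgeR recovered 94.6% of 93 planted log2 changes of 1 and 74.4% of 90 of 0.5, with 8 false calls among 163. Few genes were changed, evenly in both directions, so the simulation does not test the normalization, on which the Yap1 and Tead1 calls depended. Every simulated gene also had the same spread between libraries beyond counting noise (coefficient of variation 4.79%). The simulated rates of recovery and of false calls need therefore not hold for the real genes.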

Additional observations from a re-analysis of the deposited data

Results flagged for a closer look

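The lines for reads outside annotated genes, which no comparison used, were higher in Hdac4-knockdown libraries. They made up 3.17 to 3.41% of the tallied reads in Control libraries and 4.64 to 5.07% in Hdac4-knockdown libraries (mean 3.28 ± 0.122% against 4.79 ± 0.241%, SD, n = 3; exact permutation, two-sided p = 0.1, which is the minimum). Groups of 3 libraries are too small to be searched for single outlying libraries.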

How the results depend on the processing

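Of the 10 genes, 7 (Wwtr1, Tead2, Tead3, Tead4, Ankrd1, Amotl2 and Ajuba) kept their direction and their call under every alternative normalization, filter, test and omission of a library. Yap1 was not called with upper quartile normalization (log2 fold change -0.046), library size alone (-0.079) or at least 10 counts in every library (-0.098), and Tead1 was not called with upper quartile normalization (-0.063) or library size alone (-0.095). So 2 members in place of 4 were called lower under upper quartile normalization and under library size alone. Upper quartile normalization moved the median of all genes by 0.089. Without single libraries, Yap1 ranged from -0.17 to -0.078, not called without Control replicate 3 (-0.12) or Hdac4-knockdown replicate 3, and Lats2 from 0.17 to 0.33, not called without Control replicate 2 or Hdac4-knockdown replicate 3.

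With at least 10 counts in every library, fewer genes were tested, and 0 Vgll genes and 3 other targets were called lower. A log2 fold change threshold of 0.5 left 3579 upregulated and 2879 downregulated genes. Lower among them were 2 members, 4 Hippo kinases and adaptors, 1 regulator, 1 other target and Vgll2. Higher were the members Wwtr1, Tead3, Tead4 and Amotl2, 4 Hippo kinases and adaptors, 2 regulators, 9 other targets, Vgll3 and Vgll4. A threshold of 1 left 2397 and 1543 genes, with 1 member higher and 1 lower. It left 2 Hippo kinases and adaptors higher and 1 lower, and 2 regulators higher and 0 lower. For the Vgll genes it left 1 higher and 1 lower, and for the other targets 3 higher and 1 lower.

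The median of the Hippo kinases and adaptors, near 0, turned negative without a filter (-0.028), with DESeq2 (-0.012) and when Control replicate 1, Control replicate 3 or Hdac4-knockdown replicate 1 was left out (-0.021, -0.011 and -0.0062). Without single libraries it ranged from -0.021 to 0.060.

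With the longest transcript as length, the Yap1 and Wwtr1 sum was 1.42 times the Control value and the TEAD sum 1.25 times, and the differences in share were 10.9 percentage points for Wwtr1, 2.63 for Tead3 and 26.2 for Tead4. The Yap1 and Wwtr1 sum was 1.55 times with library size alone and 1.59 times with upper quartile normalization, and the TEAD sum 1.36 and 1.39 times. Levels per length depend on which exons are used, which these counts do not show.

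Deviations of same-numbered libraries correlated at -0.011, 0.027 and 0.017 across genes. Correlations over all genes cannot show whether the replicate numbers pair the groups for single genes. With the replicate numbers as a block, 5523 genes were called higher and 5441 lower. All 10 members were called with this block, Yap1 with a log2 fold change of -0.14.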
